A study of Homo sapiens with 12 samples.

Results

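The baseline transcriptome of OCI-AML3 is described here from the 3 libraries treated with DMSO, out of 12 libraries in all. OCI-AML3 is an established human line of acute myeloid leukaemia (AML). The libraries were chosen by their treatment label alone, and every gene is given by its level, not by a drug effect. The study sequenced poly(A) RNA as paired ends after 24 h with DMSO (the solvent), ABT199 (venetoclax, a BCL2 inhibitor), an ERK inhibitor (ERKi) or both agents, with 3 libraries per group. The DMSO cells saw the solvent alone, and no label names an engineered allele or a second line. Cells grown without solvent were not analysed here, and no label says whether the 3 libraries came from separate cultures. The spread between them may thus be technical.

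OCI-AML3 carries a mutant NPM1 gene and mutations of DNMT3A and NRAS, as is known of this line from earlier work. In NPM1-mutant AML, HOXA and HOXB genes and the HOX partner MEIS1 characteristically stay on, while CD34, the surface marker of stem and progenitor cells, is often missing. AML cells of the myelomonocytic kind share granule enzymes with neutrophil precursors and surface receptors with monocytes. They lean on BCL2 family survival proteins, which hold back the proteins that open the outer mitochondrial membrane.

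Library totals were 21097830, 21275065 and 21110646 counts in replicates 1, 2 and 3. Levels are given as counts per 1000000 (CPM) within a gene. Between genes they are given as TPM, the count per base of exonic length scaled to sum to 1000000 over the 19261 protein-coding genes that have a length. Of these genes, 10929 (56.7%) stood at 1 CPM or more in all 3 libraries, and 4128 had 0 counts in every library, where 3 counts over a library correspond to 0.141 to 0.143 CPM. The count of members of a gene list at 1 CPM in all libraries is to be read beside this 56.7%. Over all biotypes 12136 genes reached 1 CPM in all 3. The 94 genes at 1000 TPM or more made up 31.2% of the summed level, and the 100 most counted genes of any biotype held 19.5% ± 0.83 (SD, n = 3) of the counts, highest in replicate 1.

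Replicate 1 differed from replicates 2 and 3 by more than these differed from each other, so the main values below are given by library or as a mean ± SD. Without replicate 1, the number of genes at 1 CPM in all libraries was the same in 48 of 52 gene lists. It rose by 3 in the fibroblast list (from 2 to 5 of 12) and by 1 each in the cell cycle, stress and antigen presentation lists. The common biological coefficient of variation, edgeR's measure of spread between libraries beyond counting noise, was 0.106 over the 3 libraries and 0.0354 without replicate 1. Between replicates 2 and 3 the chi-square per degree of freedom over genes was 2.38, against 16.3 and 15.4 for replicate 1 with each of them. No pair therefore agreed within counting noise.

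Where exons of genes overlap or a gene has a copy elsewhere, a low count may not show a low RNA level, which was not tested. Protein-coding genes with 50% or more of their exonic bases inside exons of another gene, on either strand, had a median of 0.142 CPM (614 genes). Single genes of this class can still stand high, as did EEF1G (overlap 99.9%) at 3696 ± 212 TPM. The median was 14.6 CPM with an overlap above 0 but under 50% (7643 genes) and 1.24 CPM with none (10991 genes). Only 5 of 18 genes with copies in the pseudoautosomal regions of X and Y reached 1 CPM in all libraries, or 27.8%. In a window on chromosome 6 around the major histocompatibility complex (28000000 to 34000000, GRCh38) 52 of 189 protein-coding genes did, or 27.5%. These classes are marked where a gene belongs to them. The bounds of that window were chosen after the values were seen.

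Genes of the mitochondrial genome led the ranking. The most abundant were COX1 (24924 ± 893 TPM, SD, n = 3), COX2 (24195 ± 2977 TPM) and COX3 (18911 ± 1483 TPM), subunits of cytochrome c oxidase. Of the nuclear genes, the translation factor EEF1A1 (11221 ± 182 TPM) ranked 4 and the ferritin light chain FTL (5820.0 ± 847 TPM) ranked 9. The remaining places among the first 10 went to ND4, ND2, ATP6, ND1 and CYTB, which encode parts of complexes I, V and III. GAPDH, ACTB and ACTG1 followed. SRGN, the proteoglycan that packs the contents of granules, and CTSG, the granule protease cathepsin G, ranked 16 and 17, above every ribosomal protein gene.

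Granule genes were expressed very unevenly. In bulk RNA, fewer cells of a kind and less RNA per cell cannot be told apart. CTSG stood at 4695, 4002 and 3984 TPM in replicates 1, 2 and 3, highest in replicate 1. RNASE2, the eosinophil-derived neurotoxin, stood at 979, 826 and 894 TPM, and LYZ, which encodes lysozyme, at 440.1, 512 and 517 TPM. The classic proteins of the primary granule were far lower: neutrophil elastase (ELANE) was at 102, 79.6 and 67 TPM, azurocidin (AZU1) at 20, 15.4 and 13 TPM and proteinase 3 (PRTN3) at 5.18, 6.24 and 2.45 TPM. Myeloperoxidase (MPO), the usual enzyme marker of AML blasts, was at 2.28, 1.69 and 2.04 TPM and rank 10505. In every library CTSG lay far above each of these 4 genes. The secondary and tertiary granule genes LTF (1, 0 and 1 counts) and CEACAM8 (0 counts in each library) were at or near 0. In all, 10 of 18 granule genes reached 1 CPM in all libraries (55.6%, against 56.7% of all protein-coding genes), so the list as a whole lay near the background and only its leading genes stood out.

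CTSG and PRTN3 are both serine proteases of the primary granule. Their levels were the farthest apart among the serine proteases of the primary granule in the list, so their upstream sequences are shown. Each is the 250 bases before the start site, 5′ to 3′ along the gene, from the RefSeq promoter table for GRCh38.p14. Capitals mark GAGGAA, the core bound by PU.1 (SPI1), on either strand.
CTSG (chr14:24576251-24576500, minus strand): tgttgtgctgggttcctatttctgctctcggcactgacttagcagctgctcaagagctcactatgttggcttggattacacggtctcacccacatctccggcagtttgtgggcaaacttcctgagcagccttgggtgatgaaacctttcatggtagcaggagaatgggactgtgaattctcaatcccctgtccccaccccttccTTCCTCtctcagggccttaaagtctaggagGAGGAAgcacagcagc
PRTN3 (chr19:840749-840998, plus strand): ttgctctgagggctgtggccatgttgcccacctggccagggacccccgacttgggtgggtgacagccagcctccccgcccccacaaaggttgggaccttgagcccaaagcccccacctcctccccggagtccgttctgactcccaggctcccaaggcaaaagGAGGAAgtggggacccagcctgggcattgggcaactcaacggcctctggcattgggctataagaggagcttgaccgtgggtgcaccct
CTSG has 2 matches, which begin 46 and 16 bases before the start, and PRTN3 has 1, which begins 88 bases before it. Of the 15397 protein-coding genes with an entry in the table, 23.5% hold at least 1 match in such a window, so a match sets neither gene apart.

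Monocyte genes were present without the full monocyte surface. MNDA, a nuclear antigen of myeloid cells, stood at 751, 765 and 761 TPM in replicates 1, 2 and 3, and CD68, a lysosomal glycoprotein, at 338, 285 and 283 TPM, although 85.8% of its exonic bases lie in exons of other genes. The Fc receptor gene FCGR2A (49 ± 1.46 TPM) and S100A9 (54.9 ± 3.72 TPM), a calcium-binding alarmin, were intermediate. CD14, the lipopolysaccharide co-receptor that defines classical monocytes, had 23, 14 and 8 counts, and FCGR3A, which encodes CD16, had 0, 1 and 0. The integrin chains of mature myeloid cells were low, with ITGAM at 1.26 ± 0.221 TPM and ITGAX at 0.90 ± 0.195 TPM. Of 21 monocyte genes, 16 reached 1 CPM in all libraries (76.2%, against 56.7% of all protein-coding genes).

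Stem cell genes were nearly silent. CD34 had 2, 1 and 0 counts in replicates 1, 2 and 3 and KIT, the stem cell factor receptor, had 1, 1 and 0. AVP, PROM1, HLF, CRHBP, MECOM and SPINK2 had 0 counts throughout. MLLT3, a stem cell regulator (2.43 ± 0.205 TPM), alone reached 1 CPM in all libraries among the 10 stem and progenitor genes. Against the labelled cell type, AML, the pan-leukocyte gene PTPRC and the myeloid genes CD33 and SPI1 were expressed, as given below. Of the blast markers, CD34 and KIT were at or near 0 and MPO was low (mean 2.00 TPM).

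Markers of other blood lineages were mostly at or near 0 too. At 1 CPM in all libraries were 1 of 15 erythroid genes, 2 of 10 megakaryocyte genes, 0 of 10 mast cell, basophil and eosinophil genes, 1 of 12 B cell genes and 1 of 14 T cell genes. All globin genes of the erythroid list and the 3 CD3 chains had 0 counts. The erythroid exception was EPOR, the erythropoietin receptor (15.4 ± 2.08 TPM), and the B cell exception was EBF1, a B lineage transcription factor, at 9.86, 13.1 and 12.3 TPM. PAX5, which EBF1 works beside in B cells, stood at 0.144, 0.255 and 0.257 TPM.

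NCAM1, the CD56 adhesion molecule of NK cells that some AML cells also carry, was at 60.5, 67.9 and 67.9 TPM. NKG7, a membrane gene of killer cell granules, was at 7.96 ± 2.07 TPM. These were the 2 of 8 NK cell genes at 1 CPM in all libraries, and the killer proteins GNLY and PRF1 had at most 1 count in any library. Of 10 dendritic cell genes, 4 reached 1 CPM, led by the lipid antigen presenters CD1A (15.9 ± 1.64 TPM) and CD1C (13.2 ± 1.89 TPM). The epithelial and endothelial lists had 1 of 8 and 1 of 8 members at 1 CPM, MUC1 (3.63 ± 0.374 TPM) and PECAM1 (6.27 ± 0.394 TPM), and EPCAM and CDH5 had 0 counts. Fibroblast genes differed between the DMSO libraries and are described with replicate 1 below.

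**Figure D1:**
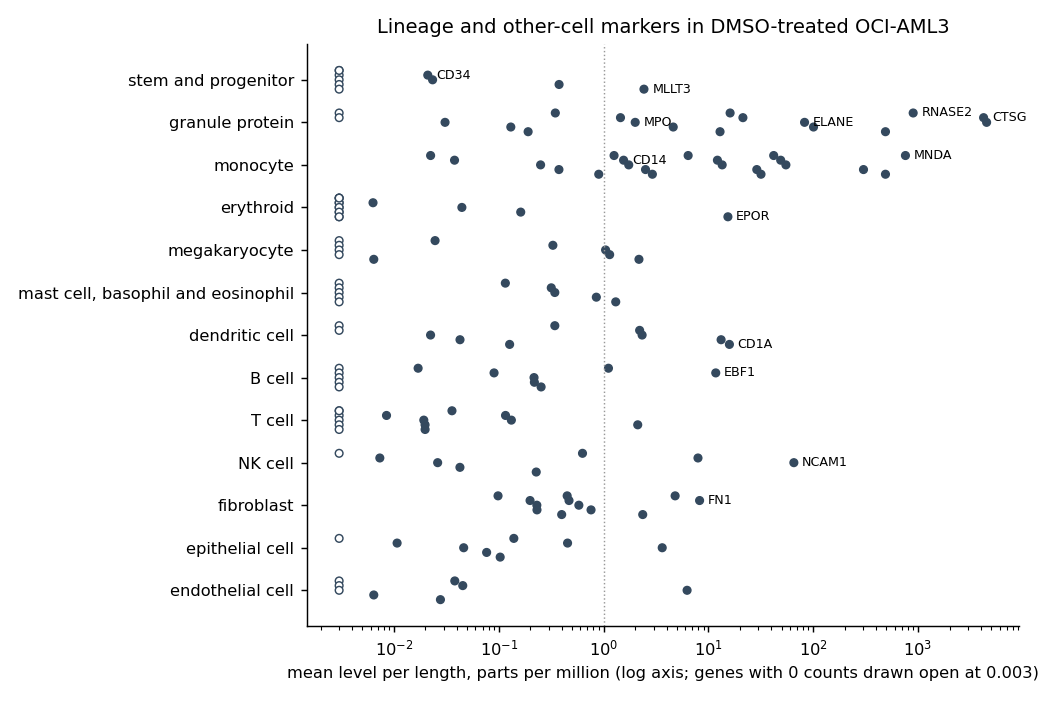
Mean level over the 3 DMSO libraries of every gene on the lineage and other-cell lists (1 point per gene, log axis in TPM, rows are lists, genes with 0 counts drawn open at the left). Granule and monocyte genes reach the highest levels, CTSG at 4227 and MNDA at 759 TPM, while most genes of the other lists lie left of the dotted line at 1 TPM.

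Among receptor tyrosine kinases, which pass growth factor signals to RAS and ERK, a few genes stood far above the rest. FLT3, the receptor most often mutated in AML, was highest of 42 at 156, 172 and 176 TPM in replicates 1, 2 and 3. RET, the receptor for ligands of the GDNF family, followed at 53.9, 57.5 and 55.6 TPM. The ranges of FLT3 and RET did not overlap, nor did those of RET and the next gene, RYK (32.5 ± 0.577 TPM), but RYK and INSR, the insulin receptor (31.4 ± 2.5 TPM), overlapped. CSF1R, which marks monocytes, was at 7.51, 5.48 and 6.26 TPM. The TAM receptors TYRO3 (5.86 ± 0.357 TPM), MERTK (2.92 ± 0.397 TPM) and AXL (2.33 ± 0.441 TPM) were low. KDR, ERBB4, NTRK2, TIE1, ALK, ROR1 and ROR2 had 0 counts, and 16 of 42 reached 1 CPM in all libraries (38.1%, against 56.7% of all protein-coding genes).

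FLT3 and KIT are close relatives in the same receptor class at opposite ends of this ranking. Their 250 upstream bases are shown with each CG in capitals, since CG density is the feature by which promoter classes are usually told apart.
FLT3 (chr13:28100577-28100826, minus strand): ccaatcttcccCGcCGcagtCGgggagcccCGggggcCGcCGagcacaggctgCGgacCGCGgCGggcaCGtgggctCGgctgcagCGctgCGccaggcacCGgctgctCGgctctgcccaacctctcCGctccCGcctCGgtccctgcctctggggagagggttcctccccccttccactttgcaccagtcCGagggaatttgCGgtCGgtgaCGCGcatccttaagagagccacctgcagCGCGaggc
KIT (chr4:54657707-54657956, plus strand): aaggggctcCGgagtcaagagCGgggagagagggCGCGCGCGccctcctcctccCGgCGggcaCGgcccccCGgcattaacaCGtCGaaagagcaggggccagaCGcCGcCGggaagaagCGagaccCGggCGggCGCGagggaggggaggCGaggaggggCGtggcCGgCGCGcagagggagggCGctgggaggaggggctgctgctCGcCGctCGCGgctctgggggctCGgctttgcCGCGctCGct
FLT3 has 26 and KIT has 34 CG, so the gene near 0 has no fewer. Across the table the median was 4 CG upstream of genes with 0 counts (3171 promoters) and 12 for those above 0 but under 1 TPM (2964). It was 19 from 1 to under 10 TPM (2304 promoters), 22 from 10 to under 100 (5385), 21 from 100 to under 1000 (1505) and 20 at 1000 TPM or more (68). With 34 CG, KIT lies well above the median of the genes in its own tier.

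Cytokine receptor genes were broadly expressed, with 31 of 39 at 1 CPM in all libraries (79.5%, against 56.7% of all protein-coding genes). The highest were TGFBR1, a TGF-beta receptor (146 ± 26.4 TPM), IL17RA (131 ± 1.55 TPM), IL6R, the interleukin 6 receptor (124 ± 12.6 TPM), TNFRSF1A (124 ± 6.35 TPM) and IL13RA1 (112 ± 12.4 TPM). CSF2RB, the shared beta chain for GM-CSF, interleukin 3 and interleukin 5, was at 36.3, 40.6 and 38 TPM in replicates 1, 2 and 3. Its alpha partners CSF2RA (1, 5 and 2 counts) and IL3RA (2, 0 and 1 counts) were listed near 0. Both alpha chains have pseudoautosomal copies, so their levels cannot be read from these counts. CSF3R, the G-CSF receptor, was at 41.4, 33.6 and 32.9 TPM.

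Of 35 chemokine and other G protein-coupled receptor genes, 16 reached 1 CPM in all libraries (45.7%, against 56.7% of all protein-coding genes). A few receptors of monocytes and of marrow homing were high. CCR1 stood at 393, 406 and 399.7 TPM, CXCR4, which holds cells in the marrow, at 386, 360.2 and 365 TPM, and CCR2, the receptor of classical monocytes, at 62.7, 70.8 and 74.3 TPM. The nucleotide receptor P2RY2 (125 ± 1.28 TPM) and the adhesion receptor ADGRE5 (90.9 ± 2.45 TPM), known as CD97, were high as well. FPR1 and C5AR1, receptors of mature phagocytes, had 0, 1 and 1 and 2, 2 and 2 counts, and CXCR1, CCR7, S1PR4, P2RY13 and P2RY14 had 0. Among pattern recognition genes, STING1, the sensor adaptor for cytosolic DNA (172 ± 16.3 TPM), NLRP3, the inflammasome core (166 ± 2.35 TPM), TLR2 (108 ± 10.1 TPM) and the adaptor MYD88 (105 ± 3.99 TPM) led. TLR4, which detects lipopolysaccharide, was at 14.3, 18.5 and 17.9 TPM, but its partner LY96 had 2, 1 and 4 counts.

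Several leukocyte surface genes were strong. At 1 CPM in all libraries were 17 of 19 integrin and adhesion genes (89.5%) and 15 of 25 AML surface antigen genes (60%). The share of all protein-coding genes was 56.7%. ITGB2, the common beta chain of leukocyte integrins, was at 371, 337 and 339.8 TPM, and its partner ITGAL at 110.4, 106 and 109.7 TPM. ITGB1 (199 ± 15.3 TPM), the sialomucin SPN (193 ± 7.68 TPM) and the hyaluronan receptor CD44 (191 ± 4.58 TPM) stood close together and their ranges overlapped. PTPRC, which encodes CD45, was at 195, 239 and 253 TPM, lowest in replicate 1. Among antigens pursued as AML targets, the CD27 ligand CD70 (144 ± 7.12 TPM), the transferrin receptor TFRC (126 ± 21.5 TPM) and CD93 (70.2 ± 6.99 TPM) ranked with FLT3 near the top. CD33, the target of gemtuzumab, was at 46.6, 40.8 and 41.7 TPM, CD47 at 30.5, 40.2 and 38.2 TPM and CD38 at 26.2, 31.7 and 28.7 TPM. CLEC12A (10, 13 and 10 counts), HAVCR2 (3, 0 and 1 counts) and CD96 (0, 1 and 0 counts) were near 0.

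The haematopoietic transcription factors spanned a wide range of levels. IRF8, the monocyte and dendritic cell factor, was highest of 60 at 854, 919 and 917 TPM in replicates 1, 2 and 3, rank 111 of all protein-coding genes. CEBPA, the granulocyte and monocyte factor, followed at 645, 622 and 631 TPM, and MYC at 442, 417 and 403 TPM. None of these 3 overlapped its neighbour. ETS2 (312 ± 2.79 TPM) and SPI1, which encodes PU.1 (at 325, 256 and 266 TPM and highest in replicate 1), overlapped each other. So did GFI1 (219 ± 5.87 TPM), a repressor that granulocytes need, the progenitor factor MYB (219 ± 18.2 TPM) and LMO2 (214 ± 3.73 TPM), a partner of TAL1.

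RUNX1 was lower, at 16.1, 19.2 and 20.6 TPM, than its partner CBFB (199.6 ± 17 TPM) and its relative RUNX2 (139 ± 8.3 TPM). CEBPB (16 ± 1.09 TPM) and CEBPE (3, 6 and 1 counts), which act later in myeloid maturation, were low or near 0. GATA2, a stem and progenitor factor, was at 2.04 ± 0.214 TPM, and TAL1, which works with LMO2 and LYL1, at 1.62 ± 0.398 TPM, below LYL1 (25.4 ± 1.86 TPM). The erythroid factor GATA1 had 0, 0 and 1 counts, and GFI1B, MYCN and MECOM had 0 counts. In all 47 of 60 factors reached 1 CPM in all libraries (78.3%, against 56.7% of all protein-coding genes). None of the 48 with a mean of 1 CPM or more departed by 1.5-fold in replicate 1. Of all genes tested only 0.565% departed above and 0.764% below, so this does not set the factors apart. Of the 46 neighbouring pairs in their order, 31 overlapped between libraries, so most neighbours do not differ beyond their spread.

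HOX genes were restricted to the HOXA and HOXB clusters. HOXA13, the gene at the 5′ end of its cluster, was highest at 161, 199.5 and 195 TPM in replicates 1, 2 and 3. HOXA11 (99.6, 108 and 100.3 TPM) and HOXA10 (56.7, 64.4 and 63.2 TPM) followed, and none of the 3 overlapped another. HOXA9, which drives self-renewal in AML, stood at 6.57, 5.77 and 6.41 TPM and rank 9165. For HOXA9, 27% of exonic bases lie in exons of other genes, and RefSeq also lists a HOXA10-HOXA9 readthrough gene, so reads of HOXA9 may be missing from its count, which was not tested. HOXA7 was at 0, 1 and 4 counts with an overlap of 62.5%. In the HOXB cluster 9 of 10 genes reached 1 CPM in all libraries, led by HOXB2 (35.2, 23 and 24.6 TPM), HOXB3 (14.8, 17.4 and 18.6 TPM) and HOXB6 (14.2, 12.4 and 14.9 TPM). HOXB2 was highest in replicate 1, 1.49-fold of CPM above the nearer library.

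No gene of the HOXC cluster exceeded 0.204 TPM, and all 9 HOXD genes had 0 counts in every library. HOX partner genes were modest: PBX3 was at 22.6 ± 1.4 TPM, PKNOX1 at 20 ± 0.638 TPM and MEIS1 at 14, 15.4 and 14.9 TPM. MEIS1 therefore lay below HOXA10 and above HOXA9 in every library.

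**Figure D2:**
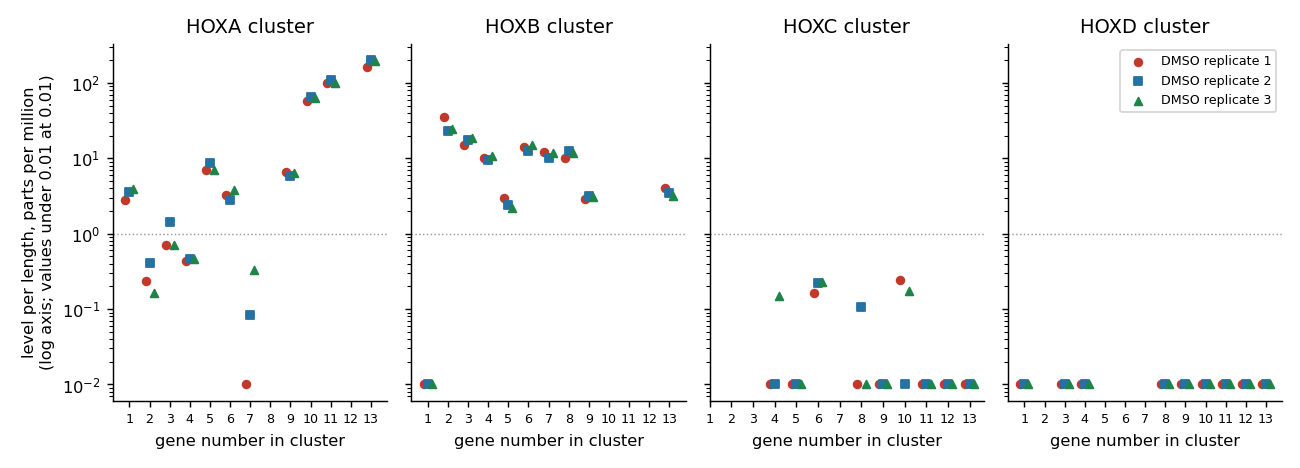
Level of each HOX gene in each DMSO library (log axis in TPM, x axis the gene number, 1 panel per cluster, values under 0.01 TPM drawn at 0.01). HOXA10, HOXA11 and HOXA13 rise above the other genes, HOXB2 to HOXB9 and HOXB13 have means between 2.53 and 27.6 TPM, HOXC genes lie under 1 TPM and HOXD genes at 0.

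HOXA13 and HOXD13 are counterparts in position 13 of their clusters, the first the highest HOX gene here and the other at 0. Their upstream 250 bases are shown with CG in capitals.
HOXA13 (chr7:27200092-27200341, minus strand): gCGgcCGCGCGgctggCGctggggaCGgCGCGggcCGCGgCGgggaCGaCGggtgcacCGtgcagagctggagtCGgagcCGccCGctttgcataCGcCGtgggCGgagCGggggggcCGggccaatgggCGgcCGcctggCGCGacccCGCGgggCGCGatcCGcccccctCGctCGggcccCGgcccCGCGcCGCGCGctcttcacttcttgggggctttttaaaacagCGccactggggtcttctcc
HOXD13 (chr2:176092471-176092720, plus strand): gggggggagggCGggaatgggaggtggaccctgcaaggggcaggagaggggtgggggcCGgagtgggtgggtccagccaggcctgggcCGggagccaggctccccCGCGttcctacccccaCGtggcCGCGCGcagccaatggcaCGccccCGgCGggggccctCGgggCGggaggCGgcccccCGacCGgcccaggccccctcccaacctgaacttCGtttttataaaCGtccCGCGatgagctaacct
HOXA13 has 40 CG and HOXD13 has 21, both above the median of 17 over all 15397 promoters. HOXD13 has the letters TATAAA 27 bases before its start, searched on this strand only, which 6.64% of all these windows hold. HOXA13 has none in this window.

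Among chromatin regulators and genes mutated in AML, 29 of 30 reached 1 CPM in all libraries (96.7%, against 56.7% of all protein-coding genes). NPM1, the nucleolar chaperone that is mutant in this line, stood at 2023, 2036 and 2034 TPM and rank 46. Counts per gene do not part mutant from normal transcripts. The splicing factor genes SRSF2 (703 ± 34.8 TPM) and SF3B1 (366 ± 43.5 TPM), the deacetylase HDAC1 (277 ± 4.68 TPM) and the dehydrogenases IDH1 (215 ± 6.8 TPM) and IDH2 (209.6 ± 22.1 TPM) followed. The maintenance methyltransferase DNMT1 was at 186 ± 2.3 TPM and the de novo enzyme DNMT3A at 19.1, 19.5 and 20.3 TPM, just above DNMT3B (17.2 ± 1.62 TPM). The demethylase TET2 was at 8.68, 12.3 and 12.5 TPM, lowest in replicate 1. DNMT3L had 0 counts. U2AF1, a splicing factor with a near-identical gene copy, is described with replicate 1.

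Metabolic lists stood high in the ranking of protein-coding genes by TPM. The median percentile was 94.5 for nucleotide synthesis, 94.3 for fatty acid and cholesterol synthesis, 93.6 for the tricarboxylic acid cycle and 90.3 for glycolysis. It was 70.5 for fatty acid oxidation, 65 for the haematopoietic factors and 33.2 for receptor tyrosine kinases.

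Glycolytic genes were high, with a median of 102 TPM and 22 of 24 at 1 CPM in all libraries. GAPDH stood at 5484, 4595 and 4679 TPM in replicates 1, 2 and 3, LDHB at 1808, 1952 and 1925 TPM and ENO1 at 1607, 1412 and 1449 TPM. LDHB, the heart type of lactate dehydrogenase, thus exceeded LDHA, the muscle type (675, 687 and 691 TPM), in every library. HK2 (89.8 ± 10.5 TPM), the hexokinase typical of tumours, was above HK1 (54.4 ± 1.68 TPM), and HK3, the myeloid hexokinase, was at 4.63 ± 0.382 TPM. The glucose transporters SLC2A1 (66.2 ± 6.38 TPM) and SLC2A3 (44.5 ± 1.82 TPM) were both expressed. ALDOA was listed at 8, 13 and 19 counts with 53.5% of its exonic bases in exons of other genes, so its low value cannot be read as a low level. Of the 22 glycolysis genes with a mean of 1 CPM or more, 17 were highest in replicate 1, against 43.2% of all genes tested.

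The pentose phosphate enzymes, which supply NADPH and ribose, were led by TALDO1 (309 ± 10.6 TPM), PGD (160.3 ± 11.4 TPM) and TKT (159 ± 13.5 TPM). All 22 tricarboxylic acid cycle genes reached 1 CPM, led by fumarase (FH, 449 ± 13.6 TPM), MDH2 (274 ± 25.9 TPM) and citrate synthase (CS, 227 ± 5.4 TPM), and pyruvate carboxylase (PC, 12.9 ± 1.05 TPM) was lowest. All 12 pyruvate dehydrogenase genes did so as well. Among its inhibitory kinases PDK3 (46.3 ± 6.97 TPM) stood above PDK1 (17.4 ± 1.98 TPM), and PDK4 was at 1.83 ± 0.317 TPM. For the nuclear-encoded respiratory chain 47 of 51 genes reached 1 CPM, led by the ATP synthase subunit ATP5F1B at 2131, 2114 and 2093 TPM. The tissue-specific subunits COX6A2 and COX4I2 had 0 counts.

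The serine and one-carbon pathway, which feeds nucleotide and glutathione synthesis, was led by PSAT1 (640.4 ± 45 TPM), MAT2A (470.1 ± 21.9 TPM), MTHFD2 (327 ± 19.7 TPM), SHMT2 (312 ± 17.7 TPM) and AHCY (304 ± 13.3 TPM). The mitochondrial SHMT2 thus exceeded the cytosolic SHMT1 (30.7 ± 0.266 TPM). PHGDH, the entry enzyme of serine synthesis, was at 89.8, 78.2 and 78.6 TPM. Amino acid uptake was led by the glutamine transporter SLC1A5 (353 ± 18.5 TPM) and the leucine transporter SLC7A5 (276 ± 11.8 TPM). Asparagine synthetase (ASNS) was listed at 18, 16 and 7 counts with an overlap of 44.6%.

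Lipid synthesis genes were abundant. SCD, the desaturase, stood at 609, 739 and 740.3 TPM, ACLY at 398, 421 and 428 TPM and fatty acid synthase (FASN) at 419, 395 and 395 TPM. The sterol genes INSIG1 (355 ± 24.3 TPM) and SQLE (279.6 ± 18.6 TPM) were high too. ACACA, which makes the malonyl-CoA that FASN uses, was listed at 1.85, 2.41 and 3.25 TPM, and ELOVL6 had 0, 3 and 2 counts. Whether the low count of ACACA shows a low RNA level was not tested. In fatty acid oxidation HADHA (529 ± 3.44 TPM), ECHS1 (278 ± 7.17 TPM) and ACADM (241 ± 18.3 TPM) led, while CPT1A, which gates entry into mitochondria, was at 5.69, 5.63 and 5.21 TPM and CPT1C had 5, 1 and 2 counts.

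Iron and redox genes were led by FTL at 6792, 5239.9 and 5428 TPM, highest in replicate 1. The ferritin heavy chain FTH1 was at 58.6, 55.9 and 54.4 TPM with an overlap of 62.4% with other genes. GPX1 (773 ± 80.7 TPM), thioredoxin (TXN, 687 ± 35.5 TPM) and the peroxiredoxins PRDX6 (556 ± 14.4 TPM) and PRDX3 (465 ± 40.6 TPM) followed, and GPX4, which detoxifies lipid peroxides, was at 321, 252 and 261 TPM. HMOX1 had 4, 9 and 17 counts. All 16 nucleotide synthesis genes reached 1 CPM, led by IMPDH2, which makes guanine nucleotides, at 907, 780.5 and 792 TPM. Of the genes that handle cytarabine, DCK, which activates it, was at 149, 181 and 176 TPM, SAMHD1, which removes its active form, at 161, 180.3 and 177 TPM and cytidine deaminase (CDA) at 22.1, 23.5 and 17.9 TPM.

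MCL1 was the most abundant survival gene of the BCL2 family. It stood at 428, 508 and 496 TPM in replicates 1, 2 and 3, rank 254, and BCL2, the target of venetoclax, at 94.1, 122 and 122 TPM, rank 1644. BCL2L2, which encodes BCL-w (28.5, 34 and 34.4 TPM), and BCL2L1, which encodes BCL-xL (23.4, 21.5 and 22.7 TPM), followed. The order MCL1, BCL2, BCL2L2, BCL2L1 held with no overlap between neighbours in the 3 libraries. BCL2A1, the survival gene of mature monocytes and neutrophils, was at 4.57, 2.55 and 3.12 TPM from 26, 14 and 17 counts, and BCL2L10 had 1, 0 and 2 counts. MCL1 and BCL2 were lowest in replicate 1, by 1.1-fold and 1.23-fold of CPM from the nearer library. RNA levels do not give the amounts of these proteins.

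Among the death genes of the family, BID, which links death receptors to mitochondria, stood at 129, 120.2 and 123 TPM, the membrane-permeabilising BAX at 114, 97.7 and 101 TPM and BCL2L11, which encodes BIM, at 84.7, 97.3 and 96 TPM. The order of these 3 held with no overlap. BAK1 (78.2 ± 3.85 TPM), which lies in the chromosome 6 window, and PMAIP1, which encodes NOXA (66.3 ± 8.36 TPM), overlapped each other. BBC3, which encodes PUMA, was lower at 13.6, 12.7 and 13.4 TPM, with BAD (10.3 ± 1.04 TPM) and BMF (9.97 ± 0.582 TPM) beneath it. BIK had 11, 10 and 20 counts, and HRK had 0. Of the 11 death genes, 8 reached 1 CPM in all libraries (72.7%), and 4 of 6 survival genes did (66.7%), against 56.7% of all protein-coding genes.

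**Figure D3:**
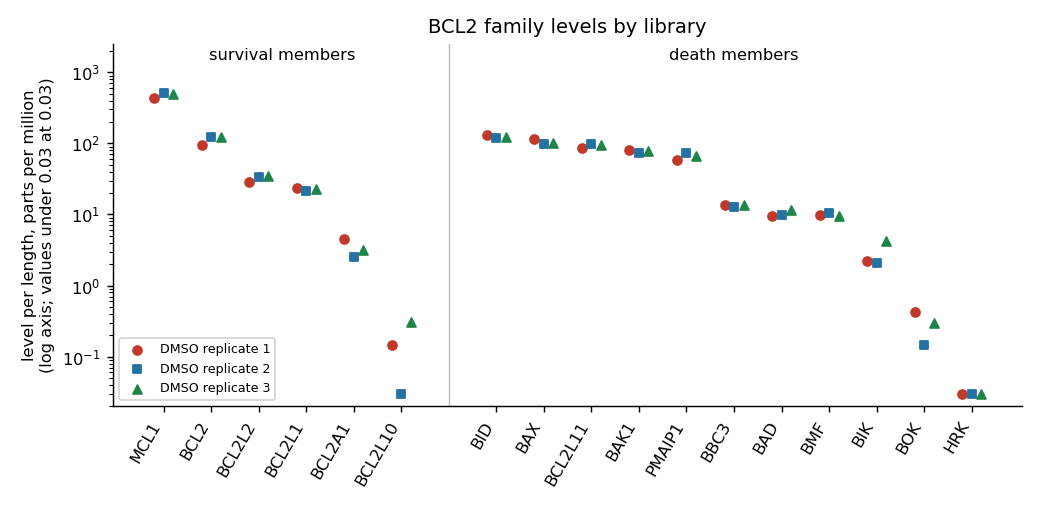
Level of each BCL2 family gene in each DMSO library (log axis in TPM, survival members left and death members right, each sorted by mean, values under 0.03 TPM drawn at 0.03). MCL1 lies above all others, and the libraries of MCL1, BCL2, BCL2L2 and BCL2L1 do not overlap between neighbours.

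Downstream of the mitochondria, CYCS, which encodes cytochrome c, was at 258, 313 and 311 TPM, and APAF1, the apoptosome scaffold, at 34.9, 57.8 and 60.5 TPM. CASP8, the initiator of the receptor route (31.7 ± 2.38 TPM), stood above CASP9, the initiator of the apoptosome (5.66 ± 1.04 TPM). Of the inhibitors, BIRC5 (survivin) led at 184, 197 and 185 TPM, XIAP was at 20.3, 29.7 and 30.2 TPM and BIRC3 had 1, 5 and 4 counts. Of the death receptors TNFRSF10B, the TRAIL receptor DR5, was at 91.3 ± 4.65 TPM and FAS at 12 ± 1.55 TPM. The ubiquitin ligase gene MDM2 stood at 41.5, 51.5 and 48.8 TPM and the cell cycle inhibitor CDKN1A at 37.2, 36.4 and 32.4 TPM.

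The ERK cascade was expressed at every tier. The adaptor GRB2 was highest at 771, 779.9 and 775 TPM. NRAS, which is mutant in this line, was at 116, 139 and 148 TPM in replicates 1, 2 and 3, lowest in replicate 1. HRAS is described with replicate 1. BRAF was at 15.6 ± 2.36 TPM and MAPK3, which encodes ERK1, at 45.5 ± 6.17 TPM. Of the feedback inhibitors, SPRY2 was at 122, 124 and 127 TPM and DUSP6 at 13.1, 13.4 and 12.8 TPM, and SPRY1 had 1, 2 and 2 counts. In the mitochondrial shape list all 14 genes reached 1 CPM. DNM1L, which encodes the fission enzyme Drp1 that the study is about, was at 69.3, 83.1 and 80.7 TPM, rank 2491, on chromosome 12 (32679301 to 32745650) in GRCh38. Its receptors FIS1 (175 ± 28.2 TPM) and MFF (33.1 ± 0.511 TPM) stood on either side of it, and the fusion genes MFN2 (136 ± 2.49 TPM) and OPA1 (82.4 ± 10.3 TPM) were above MFN1 (26.8 ± 3.16 TPM).

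Proliferation genes were high in all 3 libraries. MCM7, a subunit of the replicative helicase, was at 893, 778 and 792 TPM, PCNA at 706, 802 and 808 TPM and MKI67, the Ki-67 antigen, at 173, 223 and 222 TPM. The cell cycle list had a median of 154 TPM, with 26 of 28 genes at 1 CPM (92.9%, against 56.7% of all protein-coding genes). Among D cyclins CCND3 (153 ± 7.77 TPM) stood above CCND1 (48.9 ± 4.05 TPM), and CCND2 had 0, 3 and 3 counts. CDK4 (156 ± 10.6 TPM) and CDK6 (132 ± 21.9 TPM) were both present, and CDKN2B was at 1.2 ± 0.431 TPM.

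Stress and interferon genes were moderate. HSP90AA1, a constitutive chaperone as well as a stress gene, led the stress and immediate early list at 1558, 1836 and 1814 TPM. In that list 14 of 16 genes reached 1 CPM in all libraries (87.5%). Immediate early genes differed widely, with means of 95.7 TPM for JUNB, 39.5 for FOS, 19.9 for EGR1 and 7.82 for JUN. Lower were ATF3 (1.56 ± 0.352 TPM) and FOSB (0.841 ± 0.282 TPM). The inducible chaperone HSPA1A (4.92 ± 0.982 TPM) and IER3 (0 counts) lie in the chromosome 6 window, and HSPA1A has a near-identical copy, so neither level can be read as low. Of 25 interferon-stimulated genes 23 reached 1 CPM (92%), among them IFI6 at 103, 92.8 and 109 TPM and OAS2 (59.2 ± 2.85 TPM). Of 15 hypoxia targets 11 did (73.3%), with CA9 at 1, 0 and 2 counts. The share of all protein-coding genes was 56.7%. RNAs without a poly(A) tail, mostly replication-dependent histones, summed to 13.1, 14.8 and 16.5 CPM over 22 genes.

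Replicate 1 departed from the other DMSO libraries in a small share of genes. Of 12563 genes with a mean of 1 CPM or more, 71 (0.565%) lay at least 1.5-fold above both other libraries in replicate 1 and 96 (0.764%) at least 1.5-fold below, on the log2(CPM + 0.5) scale. The same counts for replicate 2 were 50 (0.398%) above and 46 (0.366%) below, and for replicate 3 they were 52 (0.414%) and 34 (0.271%). At a mean of 5 CPM or more the counts above and below were 30 and 35 for replicate 1, 10 and 10 for replicate 2, and 12 and 7 for replicate 3. Of 640 listed genes with a mean of 1 CPM or more, 4 departed above and 7 below in replicate 1, shares of the same order as these backgrounds. Of the 891 listed genes, 628 reached 1 CPM in all 3 libraries and 633 in both others without replicate 1.

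The 10 largest gaps above, at a mean of 5 CPM or more, belonged to genes with different roles. DDX24, an RNA helicase, was at 43.8, 2.91 and 3.31 CPM in replicates 1, 2 and 3, 11.6-fold above the nearer library. RNH1, the ribonuclease inhibitor, was at 65.9, 4.41 and 5.48 CPM, and YTHDC1, a reader of methylated RNA, at 30.5, 2.02 and 3.16 CPM. UBR7 (27.4, 2.02 and 3.31 CPM), CHCHD10 (14.5, 1.5 and 1.65 CPM), a mitochondrial protein gene, and the polarity gene SCRIB (41.6, 8.22 and 6.75 CPM) followed. In these 6 genes replicates 2 and 3 lay close together and replicate 1 far above. VAMP7 (gap 2.14 on the log2 scale), NOMO1 (1.47), U2AF1 (1.40) and SPC25 (1.36) completed the 10 largest. VAMP7 has a pseudoautosomal copy, and NOMO1 and U2AF1 have near-identical copies, so reads of these could be split.

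Several of these genes also varied widely among the 9 treated libraries, in raw counts not scaled for depth. RNH1 ran from 153 to 1708 counts there, SCRIB from 34 to 756, VAMP7 from 31 to 398, YTHDC1 from 57 to 612 and DDX24 from 44 to 385. SPC25, a kinetochore gene, ran from 24 to 121 counts there, beside 344, 129 and 125 in the DMSO libraries. The sets as a whole showed no like shift in a treated library. The median log2 difference of a library from the others of its group ran from -0.13 to 0.07 for the set above and from -0.16 to 0.10 for the set below.

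Departing genes above lay near each other more often than those below. Of 71 above, 31 had another such gene starting within 1000000 bases, against 11 of 93 with a position below. This difference was not tested. Among those above, DDX24 lay near UBR7 on chromosome 14, RNH1 near HRAS on chromosome 11 and SCRIB near PUF60 on chromosome 8. Their gaps may thus not be separate. In the chromosome 6 window 7 of 60 tested genes lay above and 1 below (CUTA), against 0.565% and 0.764% of all tested genes. In the leukocyte receptor region of chromosome 19 (54000000 to 55000000) 3 of 8 lay above and 0 below. Both regions were picked after these genes were seen. PSMB8, an immunoproteasome subunit in the first, was at 13.4, 0.563 and 0.897 CPM. LILRB4, an inhibitory receptor of monocytic AML cells in the second, was at 21.9, 9.67 and 11.8 CPM in replicates 1, 2 and 3. Of the other listed genes above, HRAS was at 5.9, 1.22 and 1.56 CPM and ICAM2 at 1.67, 0.798 and 0.661 CPM from 35, 17 and 14 counts.

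Summed over their list, fibroblast genes were lower in replicate 1. All 5 of the 12 fibroblast genes with a mean of 1 CPM or more departed, each lowest in replicate 1, against 0.764% of all genes tested. COL1A1, COL3A1 and COL6A3 lay at 0.0952, 0.0952 and 0.0476 CPM in replicate 1. They passed the filter on the mean only through replicates 2 and 3, so their departure was nearly set by it. FN1 (10.3 CPM) and COL1A2 (5.76 CPM) passed 1 CPM in replicate 1 too. COL1A1, a chain of type I collagen, had 2, 254 and 94 counts in replicates 1, 2 and 3, and FN1, fibronectin, had 217, 1103 and 838. The other type I chain, COL1A2, had 121, 406 and 287, and the chains of types VI and III, COL6A3 and COL3A1, had 1, 119 and 52 and 2, 49 and 27 counts. The 12 genes together summed to 17.6, 95.8 and 65.8 CPM. On the scale of all 12 libraries the sum was 17.8 CPM in DMSO replicate 1, the lowest of the series. It ran from 41.6 to 78.2 CPM in the venetoclax, 37.7 to 88.6 in the ERKi and 28.5 to 30.3 in the combination libraries. DCN, LUM and POSTN, genes that define fibroblasts, were at 0 in replicate 1. DCN had 0, 6 and 13 counts in the 3 libraries, LUM 0, 4 and 5 and POSTN 0, 24 and 13. Beside them, granule genes summed to 3361, 3056 and 3041 CPM and monocyte genes to 1097, 1087 and 1091 CPM. The part of RNA from other cells in this result was not tested.

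Other genes lowest in replicate 1 were CD99, a leukocyte surface gene with a pseudoautosomal copy (3.33, 24.2 and 17.2 CPM), and the centrosomal gene CEP170 (5.62, 18.5 and 21.5 CPM). PRPF8, a core splicing factor, was at 15, 111 and 36.9 CPM and CUTA at 1.43, 30.8 and 4.11 CPM. In these last 2 genes replicate 2 stood far above replicate 3 as well, so the other libraries differed too. ZBED6 (18.4, 44 and 41.9 CPM, with 96% of its exonic bases in exons of another gene) and the chaperonin HSPE1 (2.71, 6.39 and 6.33 CPM) were also among the largest gaps below. Among the lists on cell death, APAF1 alone departed, at 68.6, 108 and 113 CPM, 1.57-fold below the nearer library.

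**Figure D4:**
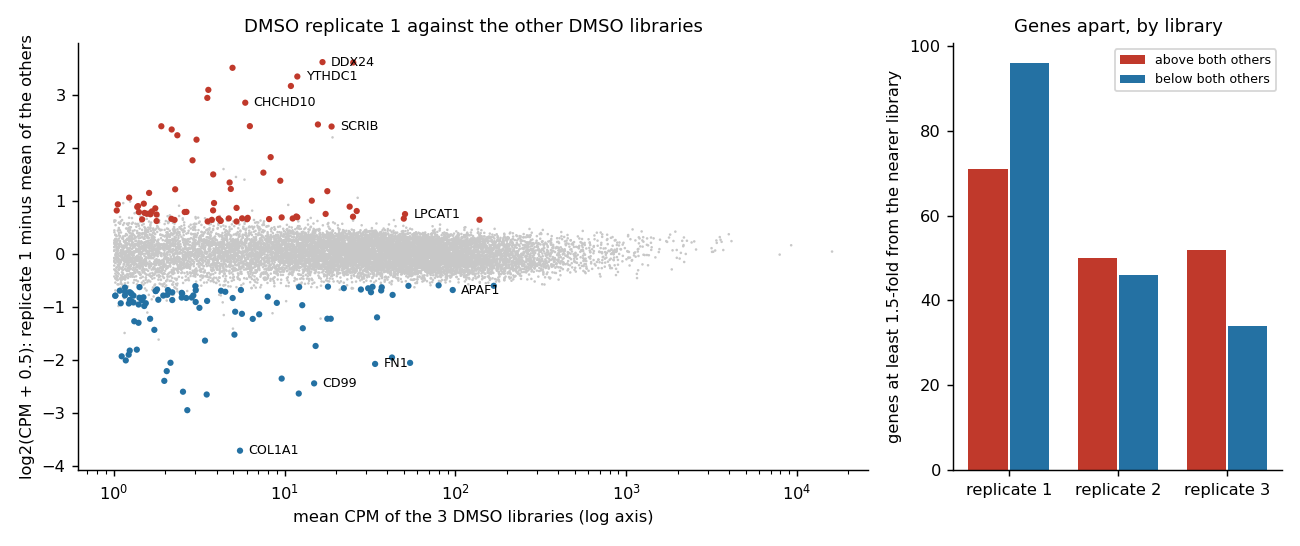
Left, for each of 12563 genes, the log2(CPM + 0.5) of DMSO replicate 1 minus the mean of the other DMSO libraries (y axis) against mean CPM (x axis, log), with genes at least 1.5-fold above (red) or below (blue) both others coloured. Right, the number of such genes for each replicate, 71 and 96 for replicate 1 against 34 to 52 for the others.

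Beside these few genes, replicate 1 differed by a broad shift with base composition. Over 12127 genes with a transcript GC content, the difference of replicate 1 from the mean of the others correlated with GC at r = 0.51 and with log2 exonic length at r = -0.23. Genes share the library, so these are descriptions. By GC decile its median went from -0.21 on the log2 scale in the lowest (under 38.4% GC) to 0.24 in the highest (over 61.3%). By length decile it was 0.10 in the shortest and -0.18 in the longest genes. Replicate 2 minus replicate 3 stayed between -0.02 and 0.02 over the GC deciles, with r = -0.05. In the 9 treated libraries r with GC against the others of each group ran from -0.07 to 0.08, none near the 0.51 of DMSO replicate 1.

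The departing genes differed in GC and length too. The median GC was 56.0% for those above (67 with a value), 45.0% for those below (90) and 48.1% for all 12127. Median exonic length was 3243, 6838 and 4990 bases. With the GC shift subtracted from replicate 1, 45 genes lay above and 79 below, of which 36 and 62 were among the first counts. The fibroblast list had a median of 42.5% GC over its 12 members. Its 5 departing genes were at 41.7% (COL1A2), 42.2% (FN1), 52.1% (COL3A1), 53.2% (COL6A3) and 61.1% (COL1A1). The part of GC in their departure was not tested. Among the lists, glycolysis (median 53.8% GC) was shifted by 0.16 in replicate 1, pentose phosphate (56%) by 0.25 and granule genes (54.1%) by 0.29. Other lists of like GC content varied. Integrin and adhesion genes (54.3%) were at -0.01, HOXA genes (54.1%) at -0.07, haematopoietic factors (53.4%) at 0.02 and stress and immediate early genes (56%) at -0.003. Antigen presentation genes (53.8%) were at 0.24, HOXB genes (55.5%) at 0.13 and BCL2 family death genes (56%) at 0.08. Each shift is a median over the members with a mean of 1 CPM or more. The GC values are medians over all members of a list, so they do not cover the same genes as the shifts. The BCL2 family survival list (48.9%) was at -0.17 and mitochondrial shape genes (42.2%) at -0.13, beside a median of 0.01 over all tested genes. What set replicate 1 apart was not tested, and cell state and library preparation cannot be told apart within 1 group.

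**Figure D5:**
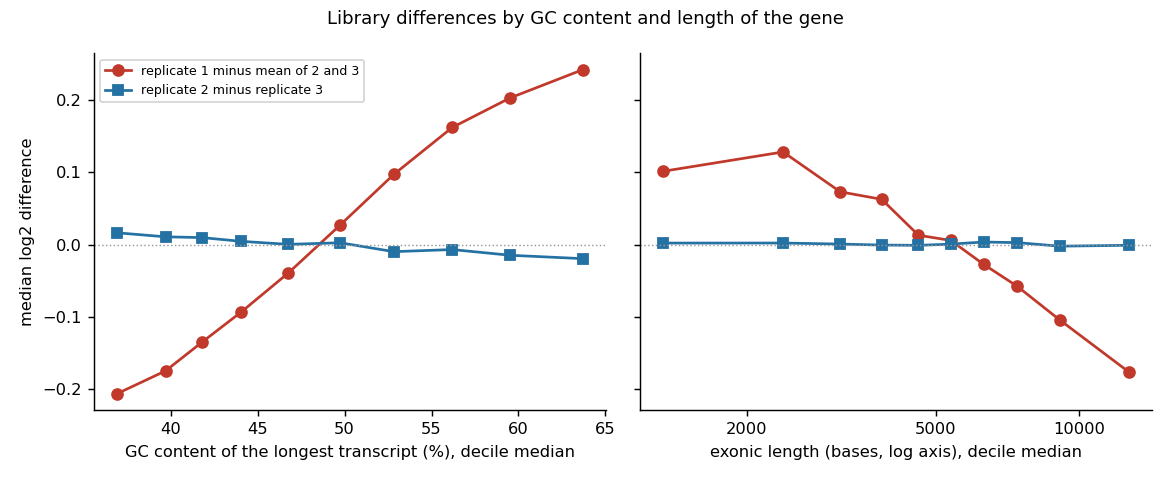
Median log2 difference by decile of transcript GC content (left) and of exonic length (right, log axis), for replicate 1 minus the mean of replicates 2 and 3 (red) and for replicate 2 minus replicate 3 (blue). The red line runs from -0.21 to 0.24 with GC, and the blue line stays between -0.02 and 0.02.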

How the data were processed

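Poly(A) RNA of 3 DMSO libraries of OCI-AML3 was described from the table of whole-number counts per gene symbol (54628 symbols, 12 libraries, 0 rows naming no gene) that the authors deposited. The submitters' processing notes name HISAT2, HTSeq and DESeq2 and the build hg38. Tool versions, annotation and strand setting: not given in the sources used here. Overlapping and antisense genes may therefore share or lose reads.

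CPM is the count over the library total scaled by TMM factors (edgeR 4.0.16, R 4.3.3), from the 13266 genes kept by filterByExpr (minimum count 10, minimum total 15) in the DMSO libraries. TPM here is computed from the counts with the union of GENCODE 29 exons, or the RefSeq span for mitochondrial genes. GC content is that of the longest GENCODE 29 transcript. Symbols were matched to RefSeq GRCh38.p14 (52040 matched). A library departs where log2(CPM + 0.5) lies at least 1.5-fold from the nearer of the other libraries, in genes with a mean of 1 CPM or more. No test was run, since 1 group is described, and ± is the SD over 3 libraries. The departure rule was tried on simulated data with 2-fold changes in 100 genes each way, all at 5 CPM or more. It found 97% of those above and 100% of those below, with 4 and 9 false calls. The simulated libraries had less spread than these and no GC trend, so the rule's error in these libraries is not known from it.

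Named genes were, from each list, up to 5 members by TPM, the lowest by count and those departing in replicate 1, with the 10 most abundant genes, the 10 largest gaps each way at a mean of 5 CPM or more and a fixed set of AML genes, and others of the lists were added for their roles after their values were seen. Some genes that the rule names are not reported here. Members and lists were chosen with earlier results of these data known. Alternatives were RLE, upper quartile, unscaled and 12-library TMM scaling, other filters, folds and pseudocounts, and each replicate left out. After the data were seen, removal of the GC trend and of overlapped genes were added. Plots used matplotlib 3.10.9.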

Additional observations from a re-analysis of the deposited data

How the results depend on the processing

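The count of genes at 1 CPM or more in all libraries stayed within 11851 to 12298 under 4 other scalings, each replicate left out and the removal of overlapped genes. The share of the 100 most counted genes was 19.01% to 19.7% with each replicate left out and 19.3% over protein-coding genes. The coefficient of variation of 0.106 ran from 0.0354 to 0.124 with 1 replicate left out, the lowest without replicate 1. The counts of departing genes depend on the threshold: from 71 above and 96 below, they became 30 and 35 at a mean of 5 CPM or more, 156 and 211 with no filter, 24 and 29 at 2-fold and 36 and 41 with a pseudocount of 2. Across the 4 other scalings they ran from 66 to 82 above and 86 to 98 below. With the GC trend removed the counts were 45 above and 79 below, of which 36 and 62 were among the first. The median percentile of a list among protein-coding genes moved by a median of 2.92 points when ranked by CPM in place of TPM (at most 12.9, stress and immediate early list), and by at most 12.1 with a replicate left out (epithelial list, near 0 counts). No paired analysis was possible because 1 group is described and no test was run. At this depth a gene under 0.143 CPM rests on fewer than 3 counts, so an order among such genes cannot be read.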

Other observations

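Some groups outside the lists above were looked at after the data were seen. Of 40 genes for secreted cytokines and growth factors, 19 reached 1 CPM in all DMSO libraries (47.5%, against 56.7% of all protein-coding genes). TGFB1 stood at 240.2, 200.4 and 193 TPM in replicates 1, 2 and 3, the neutrophil attractant CXCL8 at 169, 202 and 207 TPM and IL1B at 57.5, 58.7 and 56.3 TPM, while IL6 had 0, 5 and 5 counts and IL10, CSF2 and AREG had 0. FLT3LG, the ligand of the highest receptor tyrosine kinase, was at 3.05, 1.69 and 1.79 CPM and departed above in replicate 1.

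Antigen presentation was split by class. The class I genes HLA-B (287 ± 21.5 TPM) and HLA-C (204 ± 13.5 TPM) and their light chain B2M (50.2 ± 3.58 TPM) were expressed. Of class II, HLA-DRA had 0, 0 and 1 counts and HLA-DMB had 0, while the invariant chain CD74 was at 137, 113 and 113 TPM and CIITA, the class II activator, at 0.194, 0.278 and 0.309 TPM. The HLA genes lie in the chromosome 6 window in which 27.5% of genes reached 1 CPM, so their low values are uncertain, whereas CIITA, CD74 and B2M lie on other chromosomes.

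Of 13130 genes that RefSeq calls long non-coding, 560 reached 1 CPM in all libraries. The highest were SNHG29, a snoRNA host (352, 373 and 355 CPM), NORAD, which binds Pumilio proteins (229.8, 287 and 284 CPM), and OIP5-AS1 (194, 239 and 240.0 CPM). NORAD and OIP5-AS1 were lowest in replicate 1.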
